A study of Mus musculus with 36 samples.

Results

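The Ms4a genes Ms4a4c, Ms4a6b, Ms4a6c, Ms4a6d and Ms4a7 code for small membrane proteins of myeloid cells. They were followed here as donor cells became alveolar macrophages, which clear the lung's air spaces. The members are a list of named genes. Each had exactly 1 probe set annotated with its symbol alone, and they are 5 of 19938 genes measured in this way. Their probe sets were 10461594 (Ms4a4c), 10461622 (Ms4a6b), 10461614 (Ms4a6c), 10466210 (Ms4a6d) and 10466200 (Ms4a7). All 5 entered the tests over 12244 genes, which required 4 or more arrays above the median log2 value of the whole table (4.62).

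The 36 arrays formed 9 groups of 4, all of sorted cells labelled C57BL/6. Donor cells came from wild-type mice that carried the congenic markers CD45.1 and CD45.2 together. Precursor groups were bone marrow monocytes of adults (weeks 6 to 12), monocytes of fetal liver (E15.5) and macrophages of yolk sac (E12.5). A further donor group was alveolar macrophages lavaged from adults of the same age range. Part of each donor population was placed through the nose into the lungs of newborn Csf2rb-/- mice, which lack the beta chain of the GM-CSF receptor, and its descendants were sorted from lavage 6 weeks later (named by origin BM-derived, FL-derived, YS-derived or AM-derived). Wild-type alveolar macrophages from lavage of mice aged 6 weeks served as controls, with the same 2 congenic markers named for them. The hosts' own alveolar macrophages were not analysed here. The labels give no sort markers beyond CD45, and they call the 4 arrays of a group biological replicates, without saying whether cells of several mice were pooled.

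The MS4A family is named for proteins that cross the plasma membrane several times, with both ends inside the cell. They sit beside other surface receptors and modulate their signalling and trafficking. The founding members are Ms4a1, the B cell antigen CD20, and Ms4a2, the beta chain of the high-affinity IgE receptor of mast cells, and many of the other members are expressed in monocytes and macrophages. The genes lie side by side in a cluster and arose by duplication, so several of them are close copies of one another.

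The labelled cell types were checked against marker genes. The mean log2 level of 8 measured alveolar macrophage markers lay between 10.54 and 10.98 in all 24 alveolar arrays and between 4.73 and 5.98 in the 12 precursor arrays. Among precursors, Itgax and Car4 were under the table median in each group, whereas Chil3 stood at 12.25 in bone marrow monocytes (12.86 to 13.02 in alveolar groups), Pparg at 7.85 in fetal liver monocytes and 6.6 in yolk sac macrophages, and Siglecf at 5.82 to 5.87. Tissue macrophage markers, among them C1qa and Lyve1, averaged 10.09 to 10.19 in yolk sac macrophages and 5.11 to 5.42 in the monocytes. Classical monocyte markers averaged 11.07 to 11.48 in bone marrow and 9.42 to 9.89 in fetal liver monocytes, over 5 markers that include Chil3, which is also in the alveolar list. Chil3 set much of that gap (12.25 against 4.75), while the others stood at 11.5 and 10.71 (Ccr2), 12.3 and 11.86 (Plac8), 12.64 and 13.01 (S100a8) and 7.92 and 8.01 (Vcan). Markers of other cells were present too. Progenitor markers averaged 8.48 to 9.44 in fetal liver against 6.77 to 7.83 in bone marrow monocytes, neutrophil markers 6.02 to 7.49 against 6.36 to 8.03, and erythroid markers 6.96 to 7.54 in yolk sac macrophages. Of the progenitor markers, Cd34 stood at 8.92 in fetal liver and 3.75 in bone marrow monocytes. Mpo (11.15 and 8.94), Elane (10.52 and 9.2) and Prtn3 (10.99 and 9.24) were also higher in fetal liver. Ctsg was level (7.76 and 7.77) and Flt3 lower (4.35 and 5.36). Of the erythroid markers, Hbb-y (10.44), Hba-x (9.04), Hbb-bh1 (6.68) and Epor (6.06) exceeded the table median in yolk sac macrophages, and Alas2 (4.14) did not. Of the neutrophil markers Camp (9.47 in fetal liver, 10.99 in bone marrow), Mmp8 (9.42 and 9.95) and Ngp (6.13 and 9.58) were above the table median in both, Cxcr2 (8.33 and 4.44) in fetal liver only, Ltf (3.93 and 5.81) in bone marrow only, and Ly6g in neither. Median log2 values of single arrays ranged from 4.54 to 4.73, and the mean correlation of an array with others of its group from 0.963 to 0.982.

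Promoter windows of 2 pairs of neighbouring genes are shown because they display how alike these copies are at their start sites. They lie mostly outside the transcripts and say nothing of what the probes read. Each window runs from 250 bases before to 50 bases after the start site, was taken from RefSeq on GRCm38.p6, and is printed 5′ to 3′ on the strand of the gene, here the plus strand. Capitals mark the longest stretch that the windows of a pair share letter for letter. The windows are chr19:11518309-11518608 (Ms4a6b), chr19:11469118-11469417 (Ms4a6c), chr19:11407411-11407710 (Ms4a4c) and chr19:11443308-11443607 (Ms4a4b).
Ms4a6b: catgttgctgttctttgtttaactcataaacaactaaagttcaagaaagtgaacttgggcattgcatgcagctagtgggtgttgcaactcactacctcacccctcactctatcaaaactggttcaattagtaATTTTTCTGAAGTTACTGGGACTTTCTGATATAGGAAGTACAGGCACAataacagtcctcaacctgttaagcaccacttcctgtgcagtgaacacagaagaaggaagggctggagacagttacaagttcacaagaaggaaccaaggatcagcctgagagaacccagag
Ms4a6c: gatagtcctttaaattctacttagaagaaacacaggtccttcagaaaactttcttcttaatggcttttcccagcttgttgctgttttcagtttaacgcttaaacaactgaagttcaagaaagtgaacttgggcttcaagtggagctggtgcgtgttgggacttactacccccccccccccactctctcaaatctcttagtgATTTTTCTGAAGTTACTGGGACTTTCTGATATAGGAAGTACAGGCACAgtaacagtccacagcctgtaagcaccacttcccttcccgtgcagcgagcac
Ms4a4c: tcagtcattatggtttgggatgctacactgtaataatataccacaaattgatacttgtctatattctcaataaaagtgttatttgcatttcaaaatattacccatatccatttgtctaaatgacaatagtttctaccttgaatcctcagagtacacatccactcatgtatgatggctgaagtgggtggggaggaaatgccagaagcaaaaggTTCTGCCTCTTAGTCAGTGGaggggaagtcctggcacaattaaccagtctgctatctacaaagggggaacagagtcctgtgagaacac
Ms4a4b: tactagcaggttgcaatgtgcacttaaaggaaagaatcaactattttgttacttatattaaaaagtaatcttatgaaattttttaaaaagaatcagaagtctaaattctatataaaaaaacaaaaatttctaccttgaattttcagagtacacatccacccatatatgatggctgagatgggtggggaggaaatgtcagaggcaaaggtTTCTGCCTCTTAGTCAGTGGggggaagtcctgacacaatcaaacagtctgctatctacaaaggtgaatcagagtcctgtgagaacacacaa

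In a local alignment, Ms4a6b and Ms4a6c were identical at 188 of 218 aligned bases (86.2%), with a shared run of 48 bases that ends at position -71 from the start site of Ms4a6b and at -2 from that of Ms4a6c. Ms4a4c and Ms4a4b were identical at 162 of 182 aligned bases (89.0%), with a longest run of 20. RefSeq windows were found for 4 of the 5 members, and Ms4a6d had no entry. The windows of Ms4a4c, Ms4a6b, Ms4a6c and Ms4a7 (its upstream start) were searched on both strands for 7 motif spellings, none of which contains another. The PU.1-type letters GAGGAA began at position -61 of Ms4a4c, -64 of its copy Ms4a4b and 44 of Ms4a7, and they occur in 28.3% of all 32851 promoter windows. The C/EBP-type letters TTNNGNAA, which occur in 40.7% of windows, were found in all 4 windows, and for Ms4a6b and Ms4a6c a match lay within the shared run. A RUNX-type match (TGTGGT, in 16.8% of windows) was present for Ms4a4c alone of the 4. Letters of IRF type (GAAA repeated after a gap of NN, 3.44%), AP-1 type (TGACTCA, 5.2%), MAF type (TGCTGA, 19.5%) and nuclear receptor type (AGGTCA, 16.3%) were not in any of these 4 windows.

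Ms4a4c, a gene known from inflammatory monocytes, was bright in monocytes and dim in every alveolar macrophage. Its log2 level was 11.46, 11.14, 11.27 and 11.30 in bone marrow monocytes, 8.92, 9.69, 9.42 and 9.77 in fetal liver monocytes, and 5.30, 6.13, 6.15 and 5.30 in yolk sac macrophages. The 24 alveolar arrays lay between 2.87 and 3.69 with a median of 3.37, all under the table median. The precursor groups did not overlap, and each was above every alveolar array. Fetal liver monocytes carried 3.58-fold less Ms4a4c than bone marrow monocytes (log2 difference -1.84 ± 0.19 SE, n = 4 per group, limma adjusted p = 7.26e-09). Yolk sac macrophages carried 47.6-fold less (-5.57 ± 0.19, limma adjusted p = 2.57e-22). In sorted bulk samples, a lower level can mean fewer expressing cells or less RNA per cell, and these cannot be told apart.

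After 6 weeks in the lung Ms4a4c was at least 102-fold lower in BM-derived macrophages than in bone marrow monocytes, the fold being taken against the table median because the descendants lay under it. It was at least 28.4-fold lower in FL-derived macrophages than in fetal liver monocytes, and at least 2.14-fold lower in YS-derived macrophages than in yolk sac macrophages. The log2 differences were -7.82, -6.23 and -2.32 (SE 0.19 each), with limma adjusted p of 2.73e-26, 1.16e-23 and 3.22e-12. The descendants differed little among themselves: their group means were 3.48 for bone marrow, 3.22 for fetal liver, 3.40 for yolk sac and 3.32 for alveolar origin, against 3.19 in the controls. The change over transfer differed between each pair of origins (1.58 ± 0.27 for fetal liver against bone marrow, adjusted p = 0.000125; 5.49 ± 0.27 for yolk sac against bone marrow, adjusted p = 1.61e-17; 3.91 ± 0.27 for yolk sac against fetal liver, adjusted p = 1.49e-13; limma interaction contrasts). With all descendants under the table median, these values largely repeat the differences between the donor groups.

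**Figure D1:**
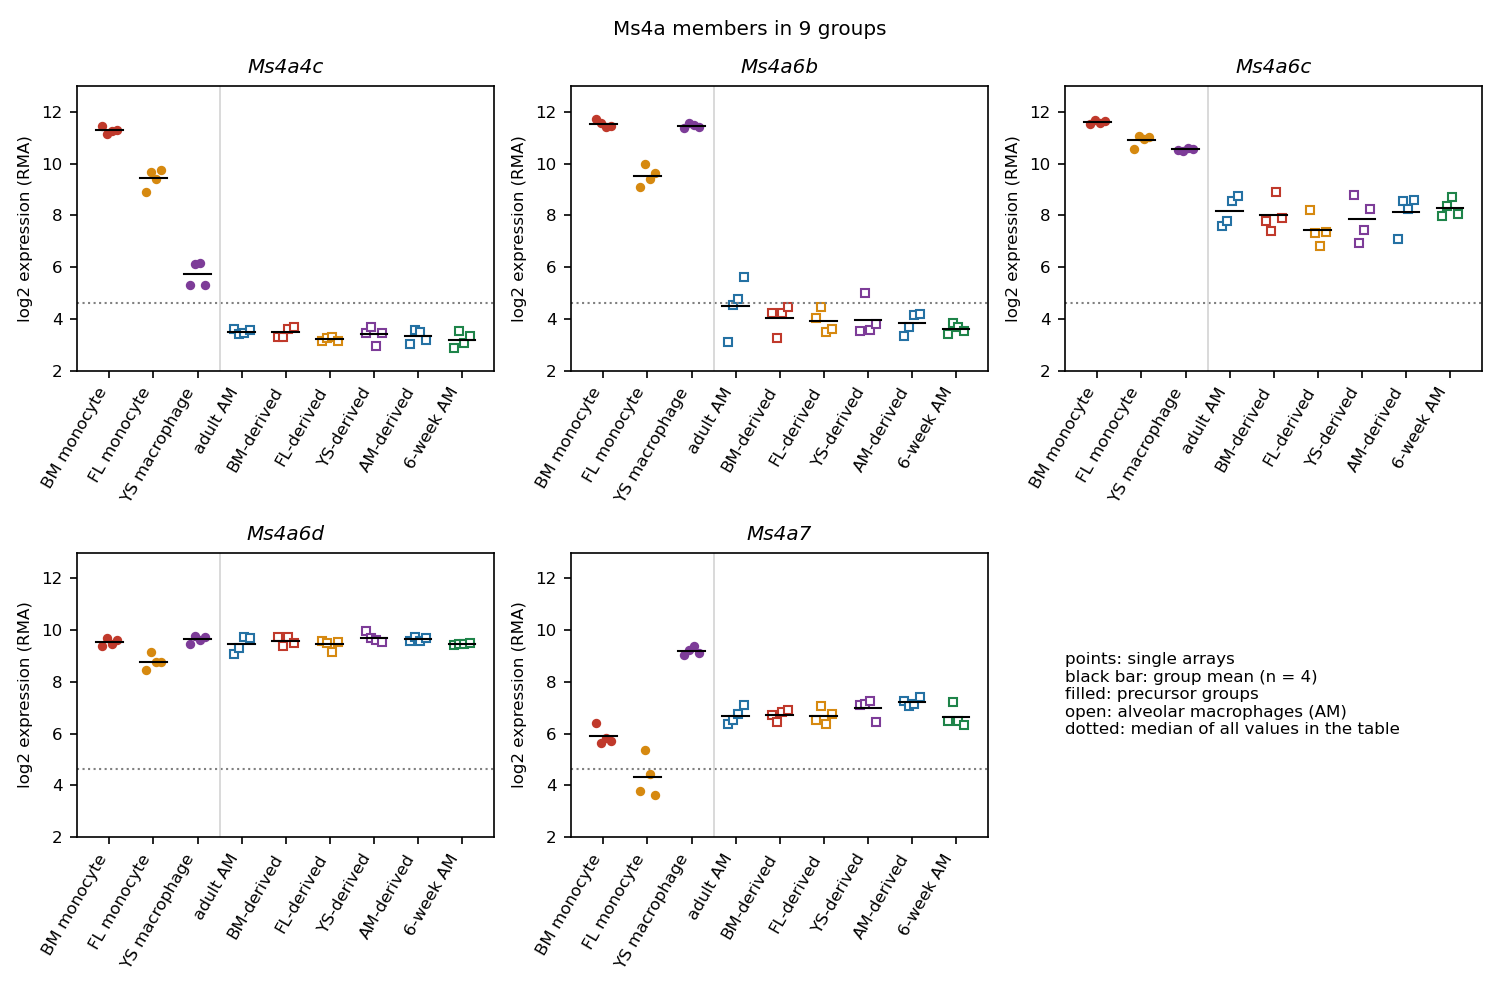
Log2 expression (RMA) of the 5 members in each array, by group, with black bars for group means (n = 4) and a dotted line at the table median of 4.62. Filled points are precursors and open squares alveolar macrophages. In alveolar groups Ms4a4c lies under the dotted line and Ms4a6b under or near it, Ms4a6c lies between 6.82 and 8.91, Ms4a6d is nearly level, and Ms4a7 is highest in yolk sac macrophages.

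Ms4a6b, which is also known from T cells where its protein associates with the receptor GITR, was bright in all 3 precursor groups. Its log2 level was 11.71, 11.57, 11.42 and 11.45 in bone marrow monocytes, 9.11, 9.99, 9.41 and 9.63 in fetal liver monocytes, and 11.37, 11.57, 11.51 and 11.43 in yolk sac macrophages. Bone marrow monocytes and yolk sac macrophages overlapped and differed by -0.07 (95% interval -0.77 to 0.63, limma adjusted p = 0.892), while fetal liver monocytes lay below both. Fetal liver monocytes were 4.01-fold lower than bone marrow monocytes (-2.00 ± 0.34, limma adjusted p = 4.33e-05) and 3.83-fold lower than yolk sac macrophages (limma adjusted p = 2.57e-05). Of 6 progenitor markers, 4 were called higher and 1 lower in fetal liver than in bone marrow monocytes, with values given above. Their part in the lower Ms4a levels was not tested.

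In alveolar macrophages Ms4a6b ranged from 3.10 to 5.62 over 24 arrays with a median of 3.81, and 3 arrays exceeded the table median. Those 3 were 2 of adult alveolar macrophages, whose values were 3.10, 4.54, 4.77 and 5.62, and 1 of YS-derived macrophages, whose values were 3.52, 5.00, 3.56 and 3.80. Each of the 12 precursor arrays was above all of them. Over transfer the gene fell at least 121-fold from bone marrow monocytes, at least 30.1-fold from fetal liver monocytes and at least 115-fold from yolk sac macrophages (log2 differences -7.50, -5.63 and -7.50, SE 0.34 each; limma adjusted p = 8e-19, 2.02e-15 and 5.27e-19). The change in fetal liver cells differed from that in bone marrow cells by 1.87 ± 0.49 (adjusted p = 0.00954) and from that in yolk sac cells (adjusted p = 0.00394), and for yolk sac against bone marrow cells the limma interaction was 0 with a 95% interval of -0.99 to 0.99. Here too the descendants were dim, and the values largely repeat those between donor groups.

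Ms4a6c, the copy next to Ms4a6b in order, was reduced in alveolar macrophages without becoming dim. Its log2 level was 11.53, 11.67, 11.58 and 11.63 in bone marrow monocytes, 10.58, 11.08, 10.97 and 11.03 in fetal liver monocytes, and 10.51, 10.48, 10.62 and 10.58 in yolk sac macrophages. Alveolar arrays lay between 6.82 and 8.91 with a median of 8.02, below each precursor array and above the table median. The fall over transfer was 12.2-fold from bone marrow monocytes (-3.61 ± 0.34, limma adjusted p = 1.46e-10), 11.2-fold from fetal liver monocytes (-3.49 ± 0.34, limma adjusted p = 2.75e-10) and 6.46-fold from yolk sac macrophages (-2.69 ± 0.34, limma adjusted p = 5.85e-08). No pair of origins differed in this change by the limma interaction test (adjusted p = 0.931 for fetal liver against bone marrow, 0.155 for yolk sac against bone marrow and 0.261 for yolk sac against fetal liver). The intervals of these differences were wide, reaching from -0.07 to 1.90 for yolk sac against bone marrow.

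The spread of Ms4a6c between arrays differed among groups. Its SD was 0.06 in bone marrow monocytes and in yolk sac macrophages and 0.23 in fetal liver monocytes, and in alveolar groups it ran from 0.34 in the controls to 0.83 in YS-derived macrophages. Fetal liver and bone marrow monocytes did not overlap, yet their difference of -0.69 ± 0.34 did not pass with the spread shared over all groups (limma adjusted p = 0.177). With these 2 groups alone in the fit the SE was 0.14 and it passed (adjusted p = 0.00819). Yolk sac macrophages were 2.08-fold lower than bone marrow monocytes (-1.06 ± 0.34, limma adjusted p = 0.0131), and their difference from fetal liver monocytes did not pass (-0.37, 95% interval -1.07 to 0.33, adjusted p = 0.447).

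Probe sets of related genes can share signal. In the 24 alveolar arrays, where the Ms4a6c and Ms4a6d probe sets both exceeded the table median throughout, that of Ms4a6b stayed under it in 21. How much the Ms4a6b transcript adds to the Ms4a6c probe set in precursors was not tested, as the probe sequences were not used here. Nor was it tested how much the Ms4a6d transcript adds to it in alveolar macrophages, and the Ms4a6c level there carries this limit.

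Ms4a6d, a macrophage protein reported to form a complex with the complement receptor Vsig4 that restrains inflammasome activity, was expressed at nearly the same level before and after transfer. Its log2 level was 9.40, 9.71, 9.46 and 9.60 in bone marrow monocytes, 8.44, 9.14, 8.78 and 8.76 in fetal liver monocytes, and 9.47, 9.76, 9.61 and 9.72 in yolk sac macrophages. Alveolar arrays lay between 9.06 and 9.97 with a median of 9.55. Group means spanned 0.93 in all, and fetal liver monocytes (mean 8.78) were the group set apart at the low end. They were 1.70-fold below bone marrow monocytes (-0.76 ± 0.14, limma adjusted p = 0.000109) and 1.82-fold below yolk sac macrophages (limma adjusted p = 6.19e-06).

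Over transfer Ms4a6d rose 1.59-fold in cells from fetal liver (0.67 ± 0.14, limma adjusted p = 0.000201), to 9.57, 9.51, 9.17 and 9.53. It moved by 0.05 in cells from bone marrow (95% interval -0.23 to 0.34, limma adjusted p = 0.802) and by 0.06 in cells from yolk sac (95% interval -0.22 to 0.35, limma adjusted p = 0.756). The larger change in fetal liver than in bone marrow cells was 0.62 ± 0.20 (limma interaction adjusted p = 0.0418). That call was lost when arrays were centred on their medians (0.54, adjusted p = 0.111), with every gene tested (adjusted p = 0.0536), with the 4 groups alone (adjusted p = 0.0857) and in 10 of 16 fits that left out 1 array, among them the fit without fetal liver monocyte array 1 (0.50, adjusted p = 0.118). The yolk sac change was smaller than that of fetal liver cells (-0.60 ± 0.20, adjusted p = 0.0236), with adjusted p of 0.0677 without fetal liver monocyte array 1 and 0.0526 without YS-derived array 4. Both interaction values largely repeat the differences between the donor groups (-0.76 and 0.86) with the sign reversed.

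Ms4a7, used as a marker of macrophages at tissue borders and of macrophages that replace microglia, moved in opposite directions in different donor cells. Its log2 level was 6.42, 5.62, 5.84 and 5.71 in bone marrow monocytes, 3.78, 5.37, 4.45 and 3.64 in fetal liver monocytes, and 9.02, 9.22, 9.40 and 9.12 in yolk sac macrophages. Alveolar arrays lay between 6.34 and 7.40 with a median of 6.80. Yolk sac macrophages were above every alveolar array, bone marrow monocytes overlapped the low end of the alveolar range with 1 array (6.42), and fetal liver monocytes were below it. Yolk sac macrophages carried 9.79-fold more than bone marrow monocytes (3.29 ± 0.26, limma adjusted p = 9.98e-13) and at least 23.7-fold more than fetal liver monocytes, whose mean of 4.31 was under the table median (limma adjusted p = 3.89e-17). The erythroid markers Hbb-y, Hba-x, Hbb-bh1 and Epor, though not Alas2, were also above the table median in yolk sac macrophages. Their part was not tested.

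Ms4a7 rose 1.78-fold from bone marrow monocytes to BM-derived macrophages (0.83 ± 0.26, limma adjusted p = 0.0107), which reached 6.71, 6.44, 6.84 and 6.93. It rose at least 4.16-fold from fetal liver monocytes to FL-derived macrophages (2.37 ± 0.26, limma adjusted p = 2.32e-09), which reached 6.51, 7.07, 6.37 and 6.76. In yolk sac cells it fell 4.6-fold (-2.20 ± 0.26, limma adjusted p = 9.28e-09) to 7.10, 7.15, 7.26 and 6.44. The descendants of all 3 origins thus ended within the range of the other alveolar groups from above and from below. The changes differed by -3.03 ± 0.36 between yolk sac and bone marrow cells (adjusted p = 3.99e-08), by -4.57 ± 0.36 between yolk sac and fetal liver cells (adjusted p = 4.09e-12) and by 1.54 ± 0.36 between fetal liver and bone marrow cells (limma interaction adjusted p = 0.00428). With the descendants close together, these values largely repeat the donor differences (3.29, 4.88 and -1.59 in that order) with the sign reversed.

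**Figure D2:**
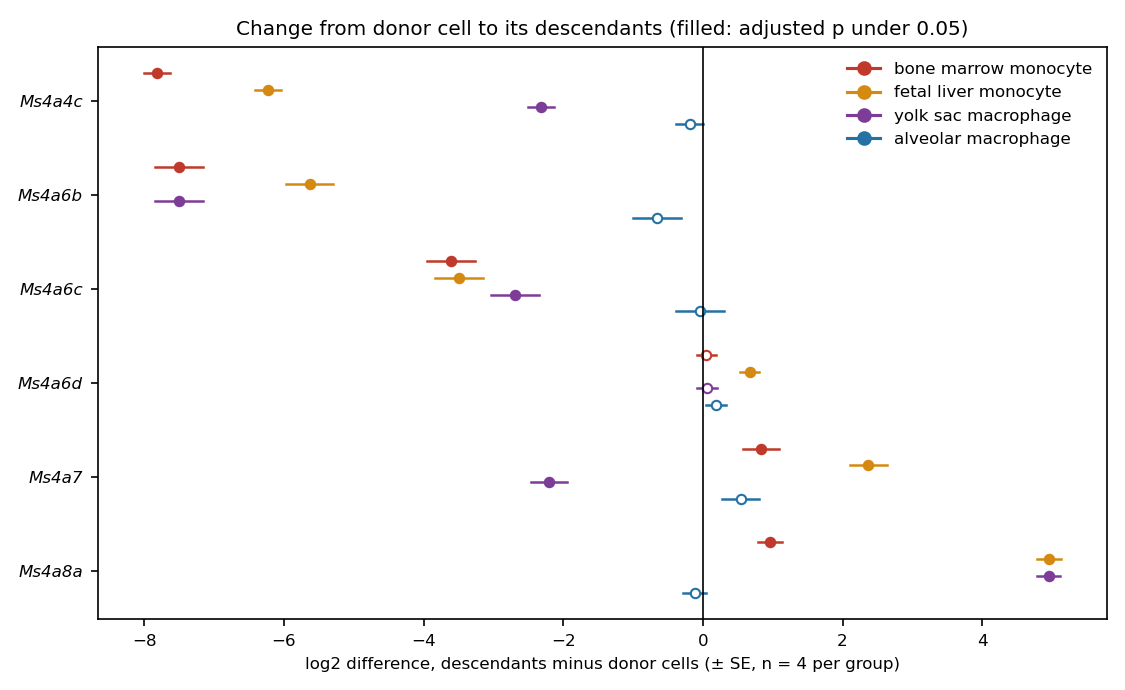
Log2 difference of descendants minus donor cells (± SE, n = 4 per group) for the 5 members and Ms4a8a, by donor origin, with filled points where the adjusted p was under 0.05. Ms4a4c, Ms4a6b and Ms4a6c lie to the left for the 3 precursor origins, Ms4a7 lies at 0.83 and 2.37 for monocytes and at -2.20 for yolk sac macrophages, and no point of transferred alveolar macrophages is filled.

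Counted over the members, 4 of 5 were lower and 0 higher in fetal liver than in bone marrow monocytes, where 8.97% of all genes tested were lower and 10.6% higher. In yolk sac macrophages against bone marrow monocytes 2 were lower (18.1% of all genes) and 1 was higher (24.1%), and against fetal liver monocytes 1 was lower (14.5%) and 3 were higher (18.6%). Over transfer 3 of 5 fell and 1 rose in bone marrow cells (16.1% and 20.3% of all genes), 3 fell and 2 rose in fetal liver cells (18% and 20.4%), and 4 fell and 0 rose in yolk sac cells (23.2% and 19.6%). The median log2 difference of the members over transfer was -3.61, -3.49 and -2.32 in that order, against -0.02, -0.02 and 0 over all genes tested. Ms4a4c and Ms4a6b had 0 and 3 alveolar arrays above the table median and entered the tests through precursor arrays. Their falls were thus largely set by the filter, and the counts of members that fell cannot be weighed against the shares of all genes. The change over transfer differed between fetal liver and bone marrow cells in 4 of 5 members (9.94% of all genes by the limma interaction test), between yolk sac and bone marrow cells in 2 (30.6%) and between yolk sac and fetal liver cells in 4 (22.9%). Descendants lay closer together than their donors, so these counts largely repeat the differences between donor groups and are no separate result. The comparisons of one origin with its descendants share no arrays in their group means, whereas the comparisons between precursors do. All of these comparisons share a single estimate of the spread per gene, taken over all groups. With all 6 alveolar groups set against the 3 precursor groups, Ms4a4c (-5.47 ± 0.10), Ms4a6b (-6.87 ± 0.17) and Ms4a6c (-3.05 ± 0.17) were lower, and Ms4a6d (0.23 ± 0.07, adjusted p = 0.00558) and Ms4a7 (0.36 ± 0.13, adjusted p = 0.0181) higher by limma, where 29.5% of all genes were lower and 27.5% higher. The value of Ms4a7 averages precursors that lie above and below it, and without fetal liver monocyte array 1 or 4 it did not pass (0.30, adjusted p = 0.0509, and 0.28, adjusted p = 0.057).

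The order of the 9 group means can be read only where neighbours differed. For Ms4a4c the order was bone marrow monocytes, fetal liver monocytes, yolk sac macrophages and then the alveolar groups, each step down to adult alveolar macrophages passing (the last by 2.21, limma adjusted p = 1.1e-11, in a pair where 42.2% of all genes passed). For Ms4a6b the lowest precursor, fetal liver monocytes, stood 5.02 above adult alveolar macrophages (limma adjusted p = 3.84e-14, 38.4% of all genes). For Ms4a6c the neighbours among precursors did not pass, and yolk sac macrophages stood 2.27 above the 6-week controls (limma adjusted p = 1.37e-06, 42.6%). For Ms4a6d only the last step, down to fetal liver monocytes, passed. For Ms4a7 yolk sac macrophages stood 1.97 above AM-derived macrophages (limma adjusted p = 8.84e-08, 43.4%), and the controls 0.73 above bone marrow monocytes (limma adjusted p = 0.026, 33.7%). No neighbours among the alveolar groups passed for any member.

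Among alveolar macrophages, no member passed a test between groups. An F test over the 6 alveolar groups gave adjusted p of 0.914 (Ms4a4c), 0.768 (Ms4a6b), 0.756 (Ms4a6c), 0.834 (Ms4a6d) and 0.732 (Ms4a7) by limma, where 3.15% of all genes passed. Over the 4 transfer-derived groups the adjusted p ran from 0.75 to 0.996, and 1.22% of all genes passed. Against the controls, 0 of 5 members passed in macrophages derived from bone marrow (1.31% of all genes), fetal liver (1.05%), yolk sac (1.72%) or alveolar donor cells (1.07%) or in adult alveolar macrophages (0.0163%), and 0 of 5 passed between AM-derived macrophages and the adult cells they came from (0.702%). The share of all genes with an unadjusted limma p under 0.05 was not computed, so the number of member values at that level cannot be judged. Against the controls they were Ms4a7 in AM-derived macrophages (0.60 ± 0.26 higher, adjusted p = 0.449), Ms4a6c in FL-derived macrophages (-0.85 ± 0.34, adjusted p = 0.488) and the dim Ms4a6b in adult alveolar macrophages (0.90 ± 0.34, adjusted p = 0.999). Ms4a7 in AM-derived macrophages was also above the adult cells (0.54, adjusted p = 0.557) and the FL-derived cells (limma adjusted p = 0.596) at that level, and Ms4a6c in FL-derived macrophages was below the adult cells (-0.74, adjusted p = 0.675).

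The intervals show what these arrays could resolve. For Ms4a6d the 95% intervals against the controls stayed within -0.30 and 0.53 in all 5 alveolar groups compared with them. The controls were tight for this gene (SD 0.04), and the means of YS-derived and AM-derived macrophages lay above theirs by 0.24 and 0.18, which did not pass (limma adjusted p = 0.697 and 0.768). For Ms4a6c they reached from -1.55 to 0.59, and so leave room for a difference of more than a doubling in FL-derived cells. Among the derived groups, 0 of 5 members passed in any of the 6 pairs. The share of all genes that passed was 0.417% for FL-derived against BM-derived, 0.833% for YS-derived against BM-derived and 0.27% for YS-derived against FL-derived cells. Against AM-derived cells it was 0.425% (BM-derived), 0.335% (FL-derived) and 0.588% (YS-derived).

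**Figure D3:**
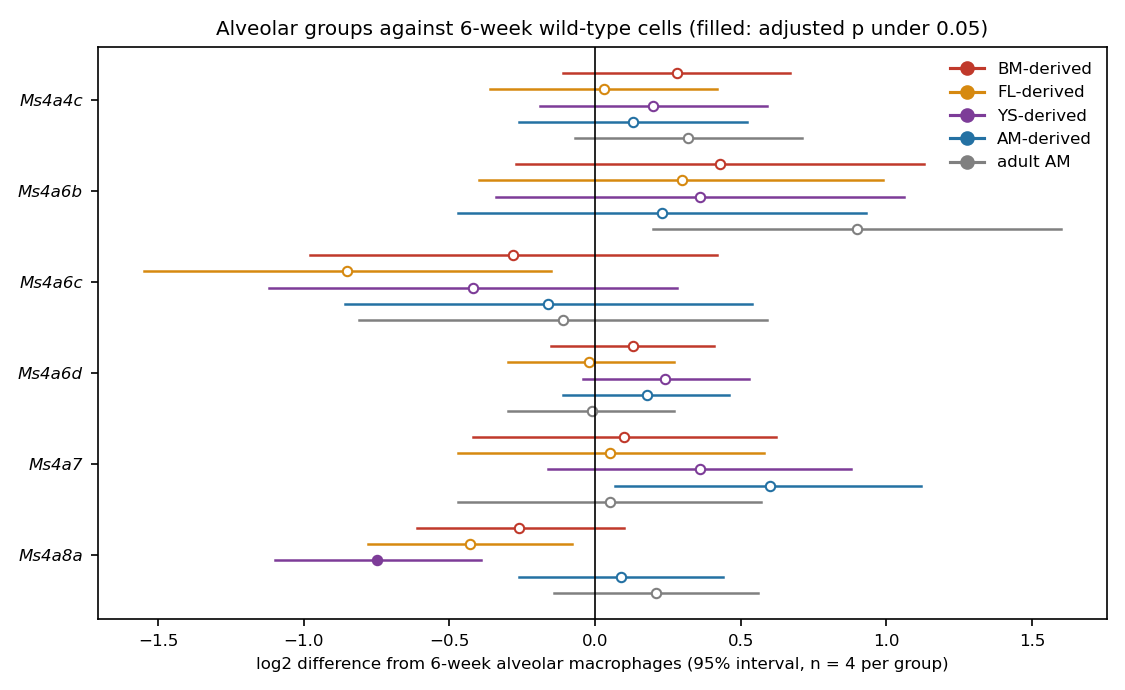
Log2 difference of each alveolar group from the 6-week controls with its 95% interval (n = 4 per group), for the 5 members and Ms4a8a, filled where the adjusted p was under 0.05. Every member's points are open, the intervals of Ms4a6d are the narrowest of the bright members, and Ms4a8a in YS-derived macrophages (-0.75) is the filled point.

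Within a group, some arrays were high or low for several members together. In adult alveolar macrophages replicate 1 was lowest for Ms4a6b (3.10), Ms4a6c (7.57), Ms4a6d (9.06) and Ms4a7 (6.36), and replicate 4 was highest for Ms4a6b (5.62), Ms4a6c (8.74) and Ms4a7 (7.09). Ms4a4c did not move with them (3.60 and 3.57). The macrophage genes Mrc1 and Itgax stood at 11.18 and 10.65 in replicate 1 and at 9.94 and 9.72 in replicate 4, and their part in the spread of the members was not tested. In fetal liver monocytes replicate 1 was lowest for Ms4a4c, Ms4a6b, Ms4a6c and Ms4a6d, though not for Ms4a7.

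The rest of the family was taken as a list of 16 genes, of which 14 had a probe set of 1 symbol and 6 passed the filter. Under the filter were Ms4a1 (all arrays from 2.32 to 3.07) and Ms4a2 (2.59 to 3.42), the markers of B cells and mast cells, together with Ms4a4d, Ms4a5, Ms4a12, Ms4a13, Ms4a19 and Ms4a20. Ms4a14 and Ms4a18 were not measured by a probe set of 1 symbol. Ms4a10 and Ms4a15 passed the filter with group means of 4.49 to 4.68 and 4.97 to 5.38, and neither passed in any comparison over transfer. Ms4a15 was lower in yolk sac macrophages than in fetal liver monocytes (-0.41, limma adjusted p = 0.0347), with adjusted p of 0.0629 to 0.161 without fetal liver array 1 or 3 or yolk sac array 4.

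Ms4a8a, known from alternatively activated macrophages, was the family gene that rose in all 3 precursor origins. Its log2 level was 9.47, 9.82, 9.44 and 9.15 in bone marrow monocytes, 4.74, 5.40, 5.60 and 5.44 in fetal liver monocytes, 5.29, 4.51, 4.86 and 5.29 in yolk sac macrophages, and 9.84 to 11.06 in alveolar arrays. It was 18-fold lower in fetal liver and 22.4-fold lower in yolk sac cells than in bone marrow monocytes. It rose 31.1-fold in fetal liver cells (4.96 ± 0.17, limma adjusted p = 3.96e-22), 31-fold in yolk sac cells (4.95 ± 0.17, limma adjusted p = 2.93e-22) and 1.95-fold in bone marrow cells (0.96 ± 0.17, limma adjusted p = 2.86e-05). It passed the limma F test over the 6 alveolar groups (adjusted p = 0.00187, where 3.15% of all genes passed), and no member did. The SD within groups was 0.25 for Ms4a8a, and for members it ran from 0.19 (Ms4a6d) to 0.52 (Ms4a6b and Ms4a6c). The tests thus differed in what they could resolve. YS-derived macrophages (10.18, 9.88, 9.85 and 9.84) lay below the controls (10.65, 10.92, 10.50 and 10.66) without overlap, by -0.75 ± 0.17 (limma adjusted p = 0.011; 0.064 without control array 2). They also lay below AM-derived macrophages (-0.84 ± 0.17, limma adjusted p = 0.0077; 0.0569 without AM-derived array 3).

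Ms4a4a, whose protein associates with the fungal receptor dectin-1, was bright in bone marrow monocytes (7.81, 8.13, 8.30 and 8.31) and yolk sac macrophages (8.43, 8.73, 8.50 and 8.84). It stood at 3.82, 5.12, 4.21 and 5.35 in fetal liver monocytes and between 3.18 and 3.77 in every alveolar array. It fell at least 11.4-fold over transfer from bone marrow monocytes (-4.77 ± 0.20, limma adjusted p = 3.88e-20) and at least 16-fold from yolk sac macrophages (-5.09 ± 0.20, limma adjusted p = 4.47e-21). Fetal liver monocytes had their mean at the table median with 2 of 4 arrays above it, so the lower value of their descendants (-1.12 ± 0.20, limma adjusted p = 1.68e-05) gives no fold. Its higher level in yolk sac than in bone marrow cells (0.49, limma adjusted p = 0.0421) did not pass with every gene tested (0.0547), after quantile normalisation (0.0776) or without each of 4 single arrays in turn (bone marrow monocyte arrays 1 and 2, yolk sac arrays 2 and 4). Ms4a4b, the copy of Ms4a4c that is best known from T cells, was above the table median only in bone marrow monocytes as a group (6.01, 6.69, 6.09 and 6.05). Of 6 measured T and NK cell markers, Nkg7 followed a like order of group means, at 6.58 in bone marrow monocytes, 5.6 in fetal liver monocytes, 3.86 in yolk sac macrophages and 3.94 to 4.29 in alveolar groups. Cd3e stood at 4.98 to 5.18 in all groups, and Cd3d, Cd3g, Ncr1 and Klrb1c were under the table median in all 9. The list's array means ran from 3.77 to 4.4 in bone marrow monocytes, and its part in the Ms4a4b level was not tested. Ms4a4c was also brightest in bone marrow monocytes (mean 11.29) and correlated with Ms4a4b by 0.928 over the 9 group means. How much the Ms4a4c transcript adds to the Ms4a4b probe set was not tested either.

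Ms4a3, the gene of granulocyte and monocyte progenitors, varied more between arrays than any member did: 7.14, 4.33, 6.84 and 8.61 in bone marrow monocytes and 8.36, 9.29, 6.68 and 6.95 in fetal liver monocytes. It was under the table median in yolk sac macrophages and in all 6 alveolar groups by their means. It fell at least 4.31-fold over transfer from bone marrow cells (limma adjusted p = 0.000171) and at least 9.16-fold from fetal liver cells (limma adjusted p = 3.47e-07). Over all 6 tested genes of the list, 3 were lower and 0 higher in fetal liver than in bone marrow monocytes (8.97% and 10.6% of all genes). One of the 3, Ms4a4b, had 4 arrays of bone marrow and 1 of fetal liver monocytes above the table median. It entered the tests through the bone marrow arrays, so this count cannot be weighed against the share either. Over transfer 3 fell and 1 rose in bone marrow cells (16.1% and 20.3% of all genes) and in fetal liver cells (18% and 20.4%), and 1 fell and 1 rose in yolk sac cells (23.2% and 19.6%), so the counts of 1 of 6 lie near the shares of all genes. The genes that fell, Ms4a3, Ms4a4a and Ms4a4b, had 3, 0 and 0 alveolar arrays above the table median. They entered the tests through precursor arrays. Their falls were thus largely set by the filter, and the counts of genes that fell cannot be weighed against these shares.

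**Figure D4:**
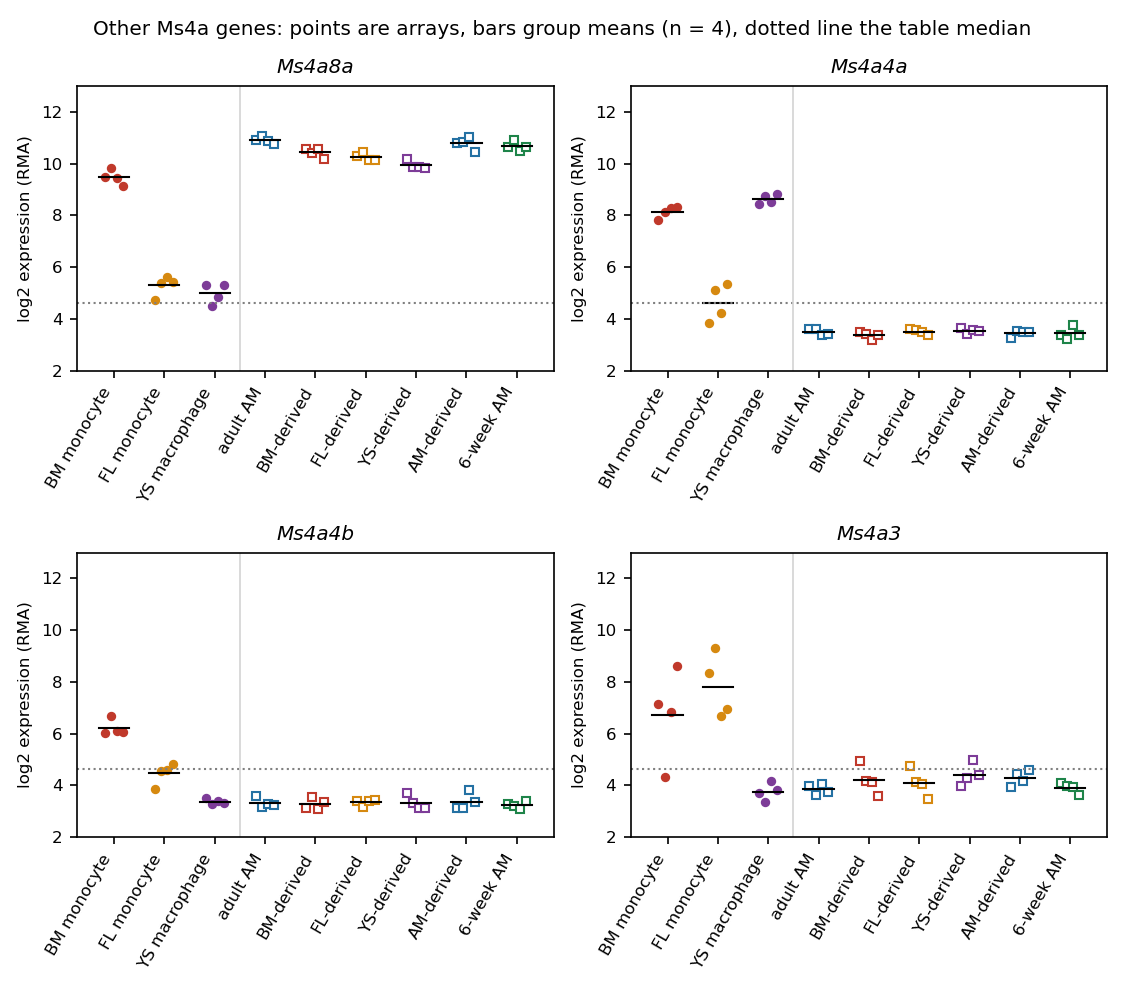
Log2 expression (RMA) of Ms4a8a, Ms4a4a, Ms4a4b and Ms4a3 in each array, by group, with bars for group means (n = 4) and a dotted line at the table median. Ms4a8a lies between 9.84 and 11.06 in alveolar arrays, and Ms4a4a and Ms4a4b lie under the dotted line there.

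Tmem176a and Tmem176b, relatives of the family found in immature dendritic cells and monocytes, fell as Ms4a4c, Ms4a6b and Ms4a6c did. Group means of Tmem176b were 8.29 in bone marrow monocytes, 5.94 in fetal liver monocytes and 7.65 in yolk sac macrophages, and 3.91 to 4.19 in alveolar groups. Group means of Tmem176a were 7.14, 5.77 and 7 in the precursors, and it lay between 3.65 and 4.34 in alveolar arrays. Both genes were lower in all 3 origins, where 16.1% (bone marrow), 18% (fetal liver) and 23.2% (yolk sac) of all genes were lower. Tmem176b fell at least 12.7-fold in bone marrow, 2.49-fold in fetal liver and 8.15-fold in yolk sac cells. Each gene had 0 alveolar arrays above the table median and entered the tests through precursor arrays. Their falls were thus largely set by the filter, and these calls cannot be weighed against the shares of all genes.

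Of 8 genes whose proteins are reported to work with family members, 7 were measured and 4 passed the filter, and Vsig4, Fcer1a and Kit were under it. All 4 rose over transfer from fetal liver cells (20.4% of all genes) and from yolk sac cells (19.6%), and 3 from bone marrow cells (20.3%). One of them, Tnfrsf18, had 24 alveolar arrays above the table median, against 1 array of fetal liver monocytes and 0 of yolk sac macrophages. It passed the filter mainly through alveolar arrays, so the counts for these origins cannot be weighed against the shares. Clec7a, which codes for dectin-1, rose by 0.97 ± 0.16, 1.31 ± 0.16 and 5.46 ± 0.16 in bone marrow, fetal liver and yolk sac cells, and reached 10.64 to 11.07 in alveolar arrays, where Ms4a4a was dim. Trem2, a lipid-sensing receptor of macrophages, was above the controls in all 4 transferred groups, by 1.04 for bone marrow, 0.95 for fetal liver, 1.18 for yolk sac and 1.08 for alveolar origin (SE 0.16 each), with limma adjusted p from 8.7e-06 to 0.000518, while no Ms4a member passed there. Tnfrsf18, which codes for GITR, rose 2.33-fold in bone marrow cells, at least 1.79-fold in fetal liver cells and at least 1.76-fold in yolk sac cells, the donors of the latter groups being dim. Fcer1g, the common gamma chain of Fc receptors, had group means of 12.04 or more in all 9 groups.

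Along chromosome 19, RefSeq lists 21 protein-coding Ms4a genes with 1 other protein-coding gene, Gm8369, among them, between Ms4a6c and Ms4a6b, and 11 of the 21 were tested. In the contrast of alveolar with precursor groups 6 of the 11 were lower and 3 higher, where 29.5% of all genes were lower and 27.5% higher. Of the lower genes, Ms4a4a, Ms4a4b and Ms4a4c had 0 alveolar arrays above the table median, and Ms4a3 and Ms4a6b had 3 each. These genes entered the tests through precursor arrays, so the count of lower genes cannot be weighed against that share. The 6 lower genes did not fill 1 unbroken block: Ms4a4a, Ms4a4c, Ms4a4b, Ms4a6c and Ms4a6b are consecutive in the family order, Ms4a7 lies before them and Ms4a6d after them, and Ms4a3 is the last gene. Of the 5 nearest named protein-coding genes on each side, 5 were tested, of which Prpf19, a splicing factor, was lower (-0.42 ± 0.09) and 0 were higher.

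**Figure D5:**
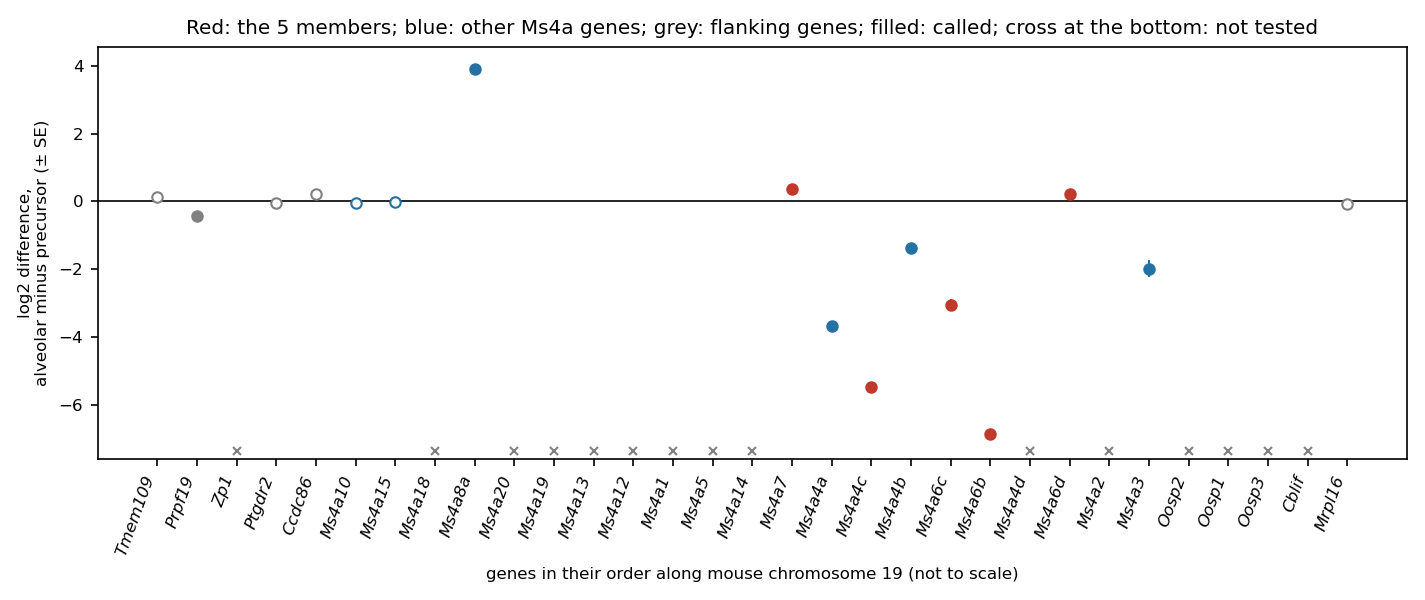
Log2 difference of alveolar minus precursor groups (± SE) for the protein-coding Ms4a genes and 5 named protein-coding genes on each side, in chromosomal order and not to scale. Members are red, other Ms4a genes blue and flanking genes grey, filled where called, and crosses at the bottom mark genes not tested. The lowest points are Ms4a6b (-6.87) and Ms4a4c (-5.47), and Ms4a7 (0.36) and Ms4a6d (0.23) lie to either side of the stretch of lower genes.

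The patterns of the members can be placed among all genes by Pearson's correlation over the 9 group means, given as a description, since all genes share the same arrays and most of the range comes from precursor against alveolar groups. The genes most like Ms4a4c were Ndufaf7 (r = 0.994), Calhm2, Plac8, Susd3 and Irf5. Plac8, a marker of classical monocytes, had group means of 12.30 in bone marrow monocytes, 11.86 in fetal liver monocytes, 6.80 in yolk sac macrophages and 3.21 to 3.83 in alveolar groups. Those most like Ms4a6b were Fyb (r = 0.996), an adaptor protein of haematopoietic cells, Gpr183, a chemotactic receptor for oxysterols, Clec4a1, Depdc7 and Tlr9. Those most like Ms4a6c were Lpar6 (r = 0.994), Ifitm3, Tesk2, Ssbp2 and Tnfrsf14. For Ms4a6d they were Ddx58 (r = 0.948), the RNA sensor RIG-I, Wls, Batf2, Socs5 and Lgals3bp, and for Ms4a7 Pepd (r = 0.968), Eogt, Dse, Rnf141 and Dhx32.

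These lists depend on the measure. With the correlation over 36 arrays, 1 of the 5 genes remained for Ms4a4c, 3 for Ms4a6b, 2 for Ms4a6c, 1 for Ms4a6d and 1 for Ms4a7. With Spearman's correlation over group means 0 remained for each. Between members, r over the 9 group means was 0.964 for Ms4a6b with Ms4a6c, 0.938 for Ms4a4c with Ms4a6c, 0.863 for Ms4a4c with Ms4a6b and 0.777 for Ms4a6d with Ms4a7.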

How the data were processed

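Per the labels, RNA of equal numbers of sorted cells was amplified and hybridised to Affymetrix Mouse Gene 1.0 ST arrays. The authors deposited log2 values for 35556 probe sets, made with RMA per the submitters' processing notes (version not given in the sources used here). RMA imposes a common distribution on the arrays, which removes a shift shared by most genes, and it compresses folds of dim probe sets. The 36 columns were matched to samples by accession, and 0 columns belonged to other samples.

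Probe sets were named through GEO's platform annotation, which can be old: 21789 had 1 symbol, 1621 several and 12146 no entry. Symbols were updated by Entrez identifier (21698 matched to RefSeq genes of GRCm38.p6, 91 kept the older symbol). The highest-mean probe set was kept for 999 genes with several. A gene was tested where at least 4 arrays exceeded the table median of 4.62, and the array build being unnamed, positions of probe sets are not given.

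Group means were estimated for the 9 groups in a single limma fit (version 3.58.1, R 4.3.3, moderated with eBayes) over the 36 arrays, leaving 27 residual degrees of freedom. P-values were adjusted by Benjamini and Hochberg over 12244 genes within each contrast and called under 0.05. The fit was tested on simulated data that gave a gene the same spread in all groups. That test therefore does not show how the fit handles spreads that differ between groups, as for Ms4a6c. A group mean under the table median is called dim and folds against it are "at least" the fold against the median. Intervals are 95% from the moderated fit, and the p-values measure the spread between samples, which may be partly technical. The number of arrays limits the precision.

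The text names the members, the tested genes of the family and of its relatives, partner genes where called, the 5 tested genes most correlated with each member, and marker genes as examples. The members and lists were chosen with earlier results of these data known. Mrc1, Itgax and Prpf19 were named after their values were seen. Alternatives covered the filter, the probe set rule, the scaling, the variance prior, the samples in the fit, a replicate block, a 2-fold call rule, the likeness measure and each array left out.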

Additional observations from a re-analysis of the deposited data

Results flagged for a closer look

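Dixon's ratio was computed for the arrays of each group of 4 in the 5 members, the other 6 tested Ms4a genes and the Tmem176 genes, and it passed the 95% critical value for 4 samples in 7 of 117 groups, where chance gives about 1 in 20. Among the members, replicate 3 of FL-derived macrophages stood at 9.17 for Ms4a6d against 9.51 to 9.57 in the others. For Ms4a8a, replicate 1 of YS-derived macrophages stood at 10.18 against 9.84 to 9.88. Ms4a4b stood at 6.69 in replicate 2 of bone marrow monocytes (others 6.01 to 6.09) and at 3.17 in replicate 2 of FL-derived macrophages (others 3.39 to 3.42). Ms4a4a in replicate 1 of AM-derived macrophages (3.26, others 3.49 to 3.52) and Ms4a10 in replicate 4 of YS-derived macrophages (4.73, others 4.53 to 4.55) lay near or under the table median. Tmem176b in replicate 3 of yolk sac macrophages stood at 7.97 against 7.5 to 7.57.

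Changes over transfer differed between origins by limma's interaction test as follows, each value being the change of the first origin minus that of the second. For fetal liver against bone marrow cells the members were Ms4a4c (1.58), Ms4a6b (1.87), Ms4a6d (0.62) and Ms4a7 (1.54), 4 of 5 where 9.94% of all genes passed. Other genes in the same contrast were Ms4a4a (3.65), Ms4a4b (1.82), Ms4a8a (4.00), Tmem176a (1.21) and Tmem176b (2.48).

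For yolk sac against bone marrow cells they were Ms4a4c (5.49) and Ms4a7 (-3.03) among the members, where 30.6% of all genes passed, and Ms4a3 (3.18), Ms4a4b (2.89) and Ms4a8a (3.99). For yolk sac against fetal liver cells they were Ms4a4c (3.91), Ms4a6b (-1.87), Ms4a6d (-0.60) and Ms4a7 (-4.57), where 22.9% of all genes passed, and Ms4a3 (4.38), Ms4a4a (-3.97), Ms4a4b (1.07), Tmem176a (-1.16) and Tmem176b (-1.80). For Ms4a4b all 4 groups of this last contrast were under the table median, so its value compares dim levels. For Ms4a4c, Ms4a6b, Ms4a3, Ms4a4a, Ms4a4b and the Tmem176 genes the descendants were under that median, and the values in all 3 contrasts largely repeat differences between donor groups. Ms4a6d, Ms4a7 and Ms4a8a had descendants above it that lay closer together than their donors, so their values largely repeat donor differences too. The adjusted p of these entries for the members ranged from 1.61e-17 to 0.0418.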

How the results depend on the processing

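No value reversed. Of 1075 member values recomputed under settings that kept all arrays, 4 changed call, and of 1340 recomputed with 1 array left out, 14 did, 12 of them Ms4a6d interactions given above. Requiring a fold of 2 lowered the members called higher from 1 to 0 in BM-derived macrophages (Ms4a7), from 2 to 1 in FL-derived macrophages and from 2 to 0 in the contrast of alveolar with precursor groups. Leaving out each array in turn gave 1 to 2 members higher in that last contrast. Other counts of members stayed within 1.5 times, among them the members lower in fetal liver than in bone marrow monocytes (4, but 3 with a fold of 2 and 5 with those groups alone) and the interactions of fetal liver against bone marrow cells (4, but 3 where the Ms4a6d call was lost). For genes that are no members, the same alternatives were chosen after seeing the data, and 45 of 5289 values changed call. The F test of Ms4a8a over the 4 derived groups (adjusted p = 0.0324) ranged from 0.0152 to 0.138 with 1 array left out, and did not pass in 6 of 16 such fits.

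The replicate numbers share only a number: the deviations of same-numbered arrays correlated by 0.001 on average, in 0 of 36 group pairs were all 4 correlations over 0.1, and 10 of 36 arrays lay closest to their own number. With the replicate block, 3 members were lower and 2 higher in alveolar against precursor groups, as without it, and no call of a member changed. Signals near the table median limit Ms4a4c, Ms4a6b and Ms4a4a in alveolar macrophages, whose order there cannot be read.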
